A study of Mus musculus with 12 samples.

Results

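The GIMAP family (GTPases of immunity-associated proteins) was followed in splenic lymphocytes of the mouse through its 8 members Gimap1, Gimap3, Gimap4, Gimap5, Gimap6, Gimap7, Gimap8 and Gimap9. The members were chosen by name, and all 8 were measured, each by a probe set of its own, among 19937 genes in all. Total RNA of C57Bl/6 x FVB F1 mice was hybridised to 12 Affymetrix mouse gene arrays, 3 in each of 4 labelled groups. Activated B cells were cultured for 4 days with αCD40 and IL-4, and resting B cells were CD43-negative splenic cells taken on day 0. Activated T cells were cultured for 4 days with αCD3, αCD28 and IL-2, and resting T cells were B220-negative splenic cells taken on day 0. Values are log2 expression values made with RMA, so that a difference of 1 is a doubling of signal. Whether the 3 arrays of a group stand for separate mice is not given in the sources used here, and p-values therefore measure only the spread between these arrays, whose number limits the precision.

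The lineage genes went against the labels in all 4 groups, and the groups are therefore called by their labels throughout, as B-labelled or T-labelled arrays, activated or resting. The mean of 12 T cell markers lay between 9.65 and 9.75 log2 in the B-labelled activated arrays and between 9.88 and 9.98 in the B-labelled resting arrays, against 5.78 to 6.48 in the T-labelled activated arrays and 5.40 to 5.69 in the T-labelled resting arrays. The mean of 11 B cell markers lay between 4.88 and 5.12 log2 in the B-labelled activated arrays, between 6.98 and 8.25 in the B-labelled resting arrays, between 10.92 and 11.07 in the T-labelled activated arrays and between 9.16 and 9.55 in the T-labelled resting arrays. The mean of 7 markers of dividing cells was 10.16 to 10.21 log2 in the B-labelled activated arrays and 6.08 to 6.55 in the B-labelled resting arrays, but 5.87 to 6.46 in the T-labelled activated arrays and 9.63 to 9.75 in the T-labelled resting arrays. Any direction given below between groups is therefore a direction between labels.

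GIMAP proteins share a GTP-binding domain of the AIG1 type, first described in plants, and are made mainly by cells of the blood and immune system. Most sit on intracellular membranes, and several are known for their part in the survival of lymphocytes. Loss of Gimap5 in rats and mice leaves the animals with few peripheral T cells, and Gimap1 is needed in the mouse to keep mature T and B cells alive. The genes lie side by side on chromosome 6, in the order Gimap8, Gimap9, Gimap4, Gimap6, Gimap7, Gimap1, Gimap5 and Gimap3.

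The promoters of 3 members are shown because these genes stand for the patterns described below: Gimap6 had the largest difference between the labelled activations of the 8 members, Gimap5, known for the survival of lymphocytes, shared its order of groups, and Gimap7 ran the other way. Each is the 250 bases before the RefSeq start, 5′ to 3′ on the strand of the gene (GRCm38.p6), with the letters GGAA, the core of sites bound by ETS factors of lymphoid cells, in capitals on either strand (TTCC where it lies on the other strand).
Gimap6 (chr6:48708245-48708494, minus strand): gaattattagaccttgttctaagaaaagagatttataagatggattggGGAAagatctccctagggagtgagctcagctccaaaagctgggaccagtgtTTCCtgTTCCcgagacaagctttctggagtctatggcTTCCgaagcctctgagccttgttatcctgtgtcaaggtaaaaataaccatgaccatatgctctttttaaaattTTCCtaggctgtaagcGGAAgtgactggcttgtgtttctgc
Gimap5 (chr6:48745947-48746196, plus strand): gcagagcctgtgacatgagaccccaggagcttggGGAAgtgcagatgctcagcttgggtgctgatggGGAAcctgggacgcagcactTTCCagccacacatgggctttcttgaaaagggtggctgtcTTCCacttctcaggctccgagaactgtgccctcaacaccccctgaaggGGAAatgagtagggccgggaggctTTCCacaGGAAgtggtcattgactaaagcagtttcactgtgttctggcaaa
Gimap7 (chr6:48718371-48718620, plus strand): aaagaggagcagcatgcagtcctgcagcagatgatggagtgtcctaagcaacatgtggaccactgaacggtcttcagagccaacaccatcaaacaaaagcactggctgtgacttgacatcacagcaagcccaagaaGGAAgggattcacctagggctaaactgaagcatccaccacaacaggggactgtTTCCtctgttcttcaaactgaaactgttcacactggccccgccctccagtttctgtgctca
GGAA occurred 6 times in the Gimap6 window, 7 times in that of Gimap5 and 2 times in that of Gimap7. All 8 members matched, with 9 windows since Gimap8 has 2 listed starts, and 8 of the 9 windows held GGAA, against 93.4% of 32851 mouse promoters. The mean number of matches was 3.67 in the windows of the members and 2.91 in all promoters. TGTGGT, bound by RUNX factors, was found for 3 of the 8 members (Gimap4, Gimap7 and Gimap1) and in 14% of all promoters. CACCC, the core of KLF sites, was found for 5 of the 8 and in 52.0% of all promoters, and GTAAACA, bound by FOXO factors, for Gimap3 alone and in 3.17% of all promoters. The windows of the members had a median GC content of 47.6%, against 52.4% over all promoters. A match says only that the letters are there.

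All 8 members lay above the background in every array, taken as 5.21 log2, the 95th percentile of 1027 olfactory receptor genes. A limma model of the 4 groups gave every comparison, and a gene was called at a p under 0.05 after Benjamini-Hochberg adjustment over 19937 genes. In the B-labelled activated arrays, 6 of the 8 members were lower than in the B-labelled resting arrays (16.7% of all genes were), 1 was higher (19.7% of all genes) and 1 was not called. The median difference of the 8 was -0.47 log2, beside -0.016 over all genes. In the T-labelled activated arrays, 6 members were higher than in the T-labelled resting arrays (15.9% of all genes), 1 was lower (17.8%) and 1 was not called, with a median of 0.74 log2 beside 0.017 over all genes. The members called in the 2 labelled activations were not all the same, as the values of each show. On bulk RNA, fewer cells of a type and less RNA per cell cannot be told apart.

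**Figure D1:**
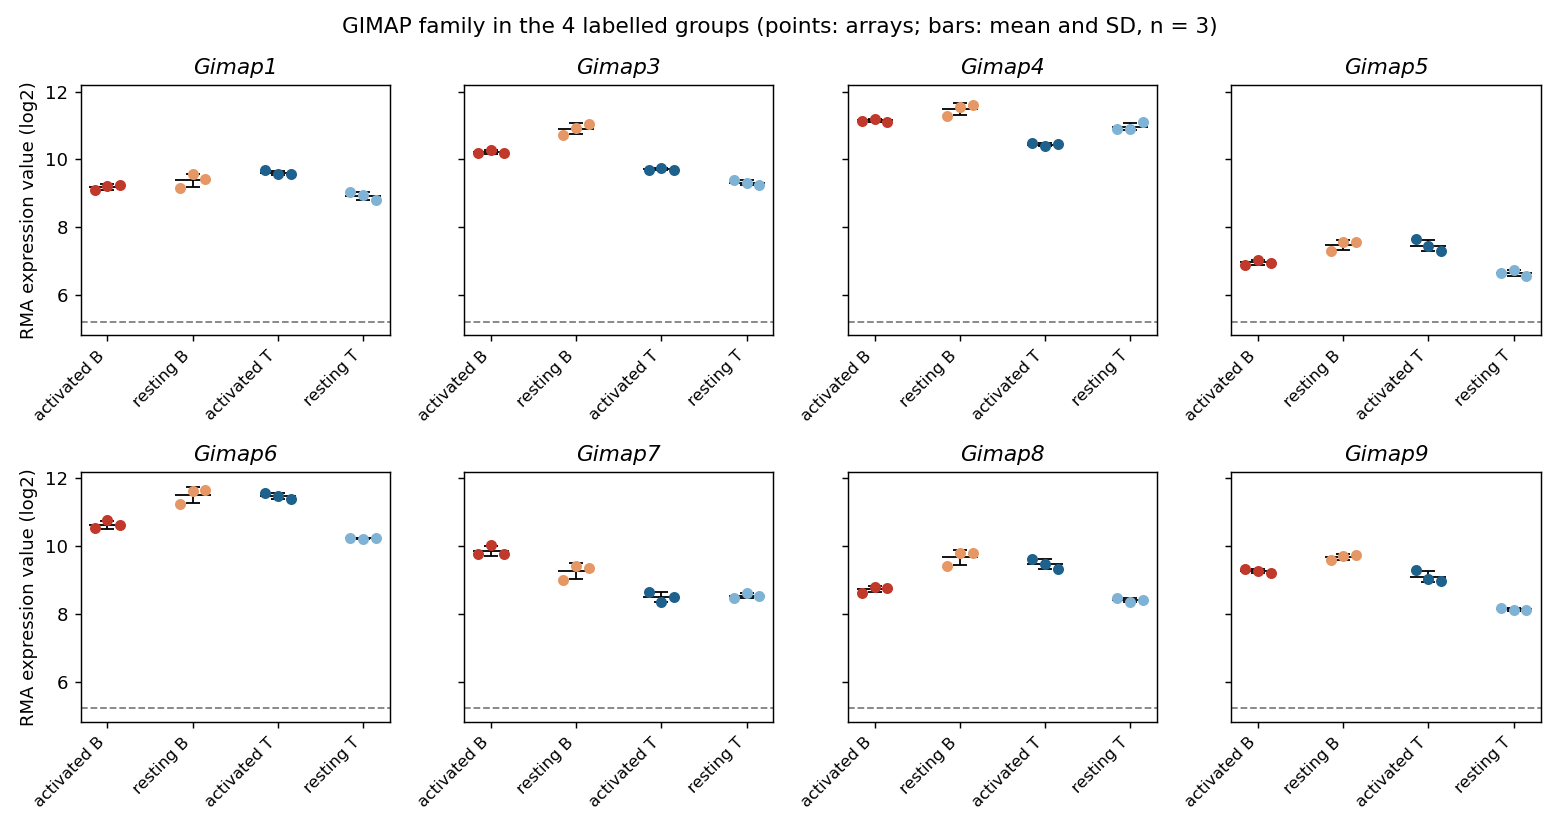
Levels of the 8 GIMAP genes (RMA, log2, y axis) in the B-labelled activated, B-labelled resting, T-labelled activated and T-labelled resting arrays (x axis), with the 3 arrays of each group as points, bars for mean and SD (n = 3), and a dashed line at the background of 5.21 log2. Gimap6 lies between 11.25 and 11.67 log2 in the B-labelled resting and T-labelled activated arrays and between 10.20 and 10.76 in the others, while Gimap7 is highest in the B-labelled activated arrays, at 9.78 to 10.03.

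Gimap6, whose protein binds the autophagy protein GABARAPL2, was at 10.53, 10.76 and 10.62 log2 in the 3 B-labelled activated arrays, against 11.25, 11.64 and 11.67 in the B-labelled resting arrays. It was at 11.57, 11.48 and 11.40 log2 in the T-labelled activated arrays, against 10.23, 10.20 and 10.25 in the T-labelled resting arrays. No group overlapped its counterpart of the same label, and the levels in the B-labelled resting and T-labelled activated arrays overlapped. It fell by 0.89 on the log2 scale in the B-labelled cells (standard error 0.11, adjusted p = 6.09e-06 from limma), a 1.85-fold lower level. In the T-labelled cells it was 1.26 log2 higher (standard error 0.11, adjusted p = 1.21e-07 from limma), a 2.39-fold higher level. The T-labelled activated and B-labelled resting arrays differed by -0.04 log2 with a standard error of 0.11 (adjusted p = 0.895 from limma).

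Gimap8, which carries several GTP-binding domains in 1 protein, followed the same order. Its values were 8.63, 8.80 and 8.75 log2 in the B-labelled activated arrays, against 9.40, 9.81 and 9.79 in the B-labelled resting arrays, and 9.62, 9.47 and 9.31 in the T-labelled activated arrays, against 8.47, 8.34 and 8.42 in the T-labelled resting arrays. Activated and resting arrays of the same label did not overlap. Its difference was -0.94 log2 in the B-labelled cells (standard error 0.12, adjusted p = 4.89e-06 from limma) and 1.06 log2 in the T-labelled cells (standard error 0.12, adjusted p = 1.48e-06 from limma). The B-labelled activated arrays lay 0.32 log2 above the T-labelled resting arrays without overlap, which missed the threshold (adjusted p = 0.0625 from limma) and passed it under 6 of 20 alternatives.

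Gimap5, a protein of lysosomal and endosomal membranes, had values of 6.88, 7.04 and 6.95 log2 in the B-labelled activated arrays, against 7.30, 7.57 and 7.56 in the B-labelled resting arrays. In the T-labelled activated arrays it was at 7.64, 7.43 and 7.29 log2, against 6.64, 6.73 and 6.55 in the T-labelled resting arrays. The T-labelled activated and B-labelled resting arrays overlapped, and activated and resting arrays of the same label did not. Gimap5 fell by 0.52 on the log2 scale in the B-labelled cells (standard error 0.11, adjusted p = 0.000906 from limma) and was 0.82 log2 higher in the T-labelled cells (standard error 0.11, adjusted p = 1.18e-05 from limma). Its probes lie on a gene with a close relative in the mouse, Gimap3, and cross-hybridisation between them was not tested.

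Gimap1, needed by mature lymphocytes of the mouse, showed the smallest range of group means of the 8, with 0.67 log2 between the highest and the lowest. It was at 9.10, 9.23 and 9.25 log2 in the B-labelled activated arrays, against 9.17, 9.56 and 9.43 in the B-labelled resting arrays, which overlapped. It was at 9.68, 9.57 and 9.56 log2 in the T-labelled activated arrays, against 9.04, 8.95 and 8.81 in the T-labelled resting arrays, without overlap. The difference was 0.67 log2 in the T-labelled cells (standard error 0.11, adjusted p = 8.13e-05 from limma). In the B-labelled cells it was -0.19 log2 (standard error 0.11, adjusted p = 0.191 from limma), and without replicate 1 of resting B it was -0.30 with adjusted p = 0.0345 from limma. No step between neighbours in the order of its groups was called, with adjusted p from 0.104 to 0.197 from limma.

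Gimap9 and Gimap3 were highest in the B-labelled resting arrays and lowest in the T-labelled resting arrays. Gimap9 was at 9.31, 9.26 and 9.21 log2 in the B-labelled activated arrays, against 9.60, 9.70 and 9.75 in the B-labelled resting arrays, and at 9.30, 9.03 and 8.98 in the T-labelled activated arrays, against 8.18, 8.10 and 8.12 in the T-labelled resting arrays. The B-labelled and T-labelled activated arrays overlapped, and no other groups did. It fell by 0.42 on the log2 scale in the B-labelled cells (standard error 0.10, adjusted p = 0.002 from limma) and was 0.97 log2 higher in the T-labelled cells (standard error 0.10, adjusted p = 4.61e-07 from limma). Only the step between the B-labelled and T-labelled activated arrays was not called for Gimap9 (0.16 log2, adjusted p = 0.221 from limma, and 0.26 log2 with adjusted p = 0.0461 without replicate 4 of activated T).

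Gimap3, the mouse relative of Gimap5, was at 10.19, 10.28 and 10.20 log2 in the B-labelled activated arrays, against 10.73, 10.93 and 11.05 in the B-labelled resting arrays. In the T-labelled activated arrays it was at 9.70, 9.74 and 9.69 log2, against 9.40, 9.30 and 9.26 in the T-labelled resting arrays. No group overlapped another, and all 6 comparisons of Gimap3 were called. It fell by 0.68 on the log2 scale in the B-labelled cells (standard error 0.09, adjusted p = 1.69e-05 from limma) and was 0.39 log2 higher in the T-labelled cells (standard error 0.09, adjusted p = 0.00341 from limma).

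Gimap4, without which T cells of the mouse die more slowly, was lower in the activated than in the resting arrays of both labels. It was at 11.15, 11.20 and 11.11 log2 in the B-labelled activated arrays, against 11.29, 11.54 and 11.61 in the B-labelled resting arrays. It was at 10.47, 10.39 and 10.44 log2 in the T-labelled activated arrays, against 10.90, 10.90 and 11.10 in the T-labelled resting arrays. The groups did not overlap in either pair. It fell by 0.33 on the log2 scale in the B-labelled cells (standard error 0.10, adjusted p = 0.0142 from limma), and this call was lost with each array centred on its median (adjusted p = 0.1) and without replicate 2 or 3 of resting B or replicate 3 of activated B (adjusted p = 0.0568, 0.0745 and 0.0522). In the T-labelled activated arrays it was 0.53 log2 lower than in the T-labelled resting arrays (standard error 0.10, adjusted p = 0.000357 from limma). The markers of dividing cells were lower in the T-labelled activated arrays as well (median -3.87 log2). In the B-labelled activated arrays, where Gimap4 was also lower, they were higher (median 4.02 log2).

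Gimap7, whose human protein hydrolyses GTP when it forms a dimer, was the member called higher in the B-labelled cells. It was at 9.78, 10.03 and 9.78 log2 in the B-labelled activated arrays, against 8.99, 9.43 and 9.35 in the B-labelled resting arrays, without overlap. It was at 8.64, 8.34 and 8.51 log2 in the T-labelled activated arrays, against 8.48, 8.62 and 8.51 in the T-labelled resting arrays, which overlapped. The difference was 0.61 log2 in the B-labelled cells (standard error 0.12, adjusted p = 0.000636 from limma) and -0.04 log2 in the T-labelled cells (standard error 0.12, adjusted p = 0.851 from limma). Every B-labelled array thus lay above every T-labelled array for Gimap7, and the activated B-labelled arrays lay above the resting ones.

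**Figure D2:**
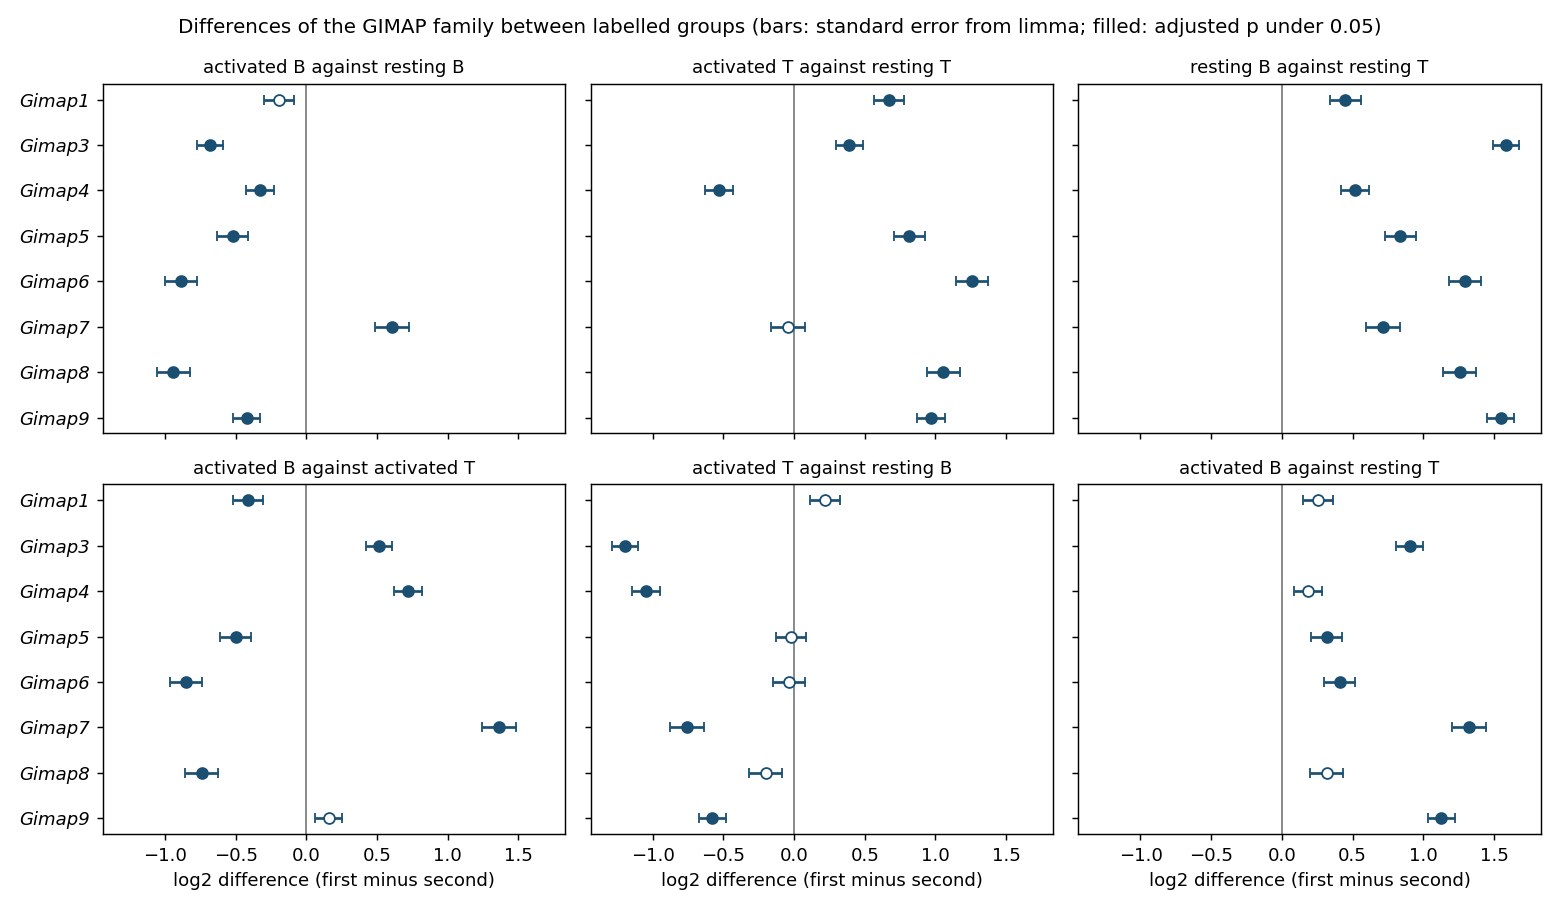
Log2 differences (x axis) of the 8 GIMAP genes (y axis) in the 6 comparisons between labelled groups, with the first group of each panel title minus the second, standard errors from limma as bars and filled points for an adjusted p under 0.05. All 8 are positive and called for resting B against resting T, and between the activated groups Gimap7, Gimap4 and Gimap3 are positive while Gimap6, Gimap8, Gimap5 and Gimap1 are negative.

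The difference between the 2 labelled activations was tested as an interaction, the activated minus resting difference in the B-labelled cells minus that in the T-labelled cells. Of the 8 members, 6 had a negative interaction (20.9% of all genes did), 1 a positive one (21.9% of all genes) and 1 was not called, and the median was -1.20 log2 beside -0.035 over all genes. Gimap6 had the most negative value, -2.14 log2 (standard error 0.16, adjusted p = 6.46e-09 from limma), and Gimap8 was next with -2.0 (standard error 0.16, adjusted p = 2.54e-08 from limma). For Gimap9, Gimap5, Gimap3 and Gimap1 the values were -1.39, -1.34, -1.07 and -0.86 log2, with a highest adjusted p of 0.00014 from limma. Gimap7 had 0.65 log2 (adjusted p = 0.00501 from limma, and 0.38 with adjusted p = 0.0535 after quantile normalization). Gimap4 had 0.21 log2 (adjusted p = 0.273 from limma), and 0.42 with adjusted p = 0.0235 with each array centred on its median.

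That centring moved the median of all genes by 0.11 log2 between the B-labelled groups, by -0.10 between the T-labelled groups, by 0.13 between the activated groups and by 0.21 in the interaction, and adds the same amounts to every member, so that relative to this shift the differences of the members are as given above. It also moved the share of higher genes among all genes called: to 66.6% against 54.1% between the B-labelled groups, to 33.9% against 47.3% between the T-labelled groups, to 68.5% against 53.5% between the activated groups, to 67.6% against 51.2% in the interaction, and to 36.5% against 45.9% between the resting groups, where the median of all genes moved by -0.08 log2. No member called in any comparison changed its direction under median centring or quantile normalization.

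Between the resting groups, all 8 members were higher in the B-labelled resting arrays than in the T-labelled resting arrays (16.1% of all genes were higher and 19.0% lower), with a median of 1.05 log2 beside -0.003 over all genes. Gimap3 was at 10.90 ± 0.16 log2 in the B-labelled resting arrays and 9.32 ± 0.07 in the T-labelled resting arrays (SD, n = 3 each), a difference of 1.59 log2 or 3.0-fold (adjusted p = 6.57e-10 from limma). Gimap9 followed with 1.55 log2 (adjusted p = 1.17e-09 from limma). The smallest was that of Gimap1, 0.45 log2 (adjusted p = 0.00277 from limma). The T cell markers were higher in the same arrays (12 of 12, median 4.31 log2), as were 10 of 11 quiescence genes, while 9 of 11 B cell markers and 7 of 7 markers of dividing cells were lower. Markers of other cells were higher there too, with 5 of 6 for natural killer cells (median 2.44 log2), 7 of 10 for macrophages and monocytes (1.62) and 4 of 5 for platelets and megakaryocytes (0.60). The part of each in the result was not tested.

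Between the activated groups the members divided. In the B-labelled activated arrays, 3 were higher than in the T-labelled activated arrays (21.8% of all genes), 4 were lower (18.9%) and Gimap9 was not called. Gimap7 was at 9.86 ± 0.14 log2 in the B-labelled activated arrays and 8.50 ± 0.15 in the T-labelled activated arrays (SD, n = 3 each), a difference of 1.36 log2 or 2.58-fold (adjusted p = 7.35e-08 from limma), and Gimap4 and Gimap3 differed by 0.72 and 0.51. Gimap6, Gimap8, Gimap5 and Gimap1 had differences of -0.85, -0.74, -0.50 and -0.41 log2, with a highest adjusted p of 0.00448 from limma, and Gimap1 lost its call with each array centred on its median (adjusted p = 0.0568).

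The groups of unlike label and state were also set against each other. In the T-labelled activated arrays, 4 members were lower than in the B-labelled resting arrays (9.68% of all genes), none was higher (8.82% of all genes were) and 4 were not called. Gimap3 had -1.20, Gimap4 -1.05, Gimap7 -0.76 and Gimap9 -0.58 log2, with a highest adjusted p of 0.000239 from limma. Gimap5 and Gimap6 lay within 0.04 log2 of 0 there, and without replicate 1 of resting B Gimap8 was called too (-0.33 log2, adjusted p = 0.0431 from limma). At unadjusted p under 0.05 still no member was higher, though Gimap1 lay 0.22 log2 higher without overlap (unadjusted p = 0.0551 and adjusted p = 0.197 from limma).

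In the B-labelled activated arrays, 5 members were higher than in the T-labelled resting arrays (13.0% of all genes), none was lower (9.93%) and 3 were not called. At unadjusted p under 0.05 still no member was lower. Gimap7 had 1.32 log2, Gimap9 1.13 and Gimap3 0.90, with a highest adjusted p of 1.18e-06 from limma. Gimap6 (0.41) and Gimap5 (0.32) had adjusted p = 0.0121 and 0.0437 from limma, and without replicate 2 of activated B neither was called and 3 members were. Gimap5 also lost this call without replicate 1 or 3 of activated B, 4 or 6 of resting T or 5 of activated T, with adjusted p from 0.0561 to 0.149 over these arrays and that replicate 2. The 6 comparisons share their arrays, so that their values are not independent of each other.

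The spread over the 12 arrays divided the members by its largest part, a description made after the values were seen. The interaction of label and state held 89.5% of the sum of squares of Gimap6, 88.5% of that of Gimap8, 82.4% of that of Gimap5 and 65.0% of that of Gimap1. The labelled cell type held 80.9% of the sum of squares of Gimap7, 76.9% of that of Gimap3, 62.7% of that of Gimap4 and 55.5% of that of Gimap9. The part within groups was between 1.61% (Gimap3) and 15% (Gimap1). The 2 divisions do not follow the order on the chromosome, where Gimap6 and Gimap7 are neighbours, as are Gimap5 and Gimap3.

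**Figure D3:**
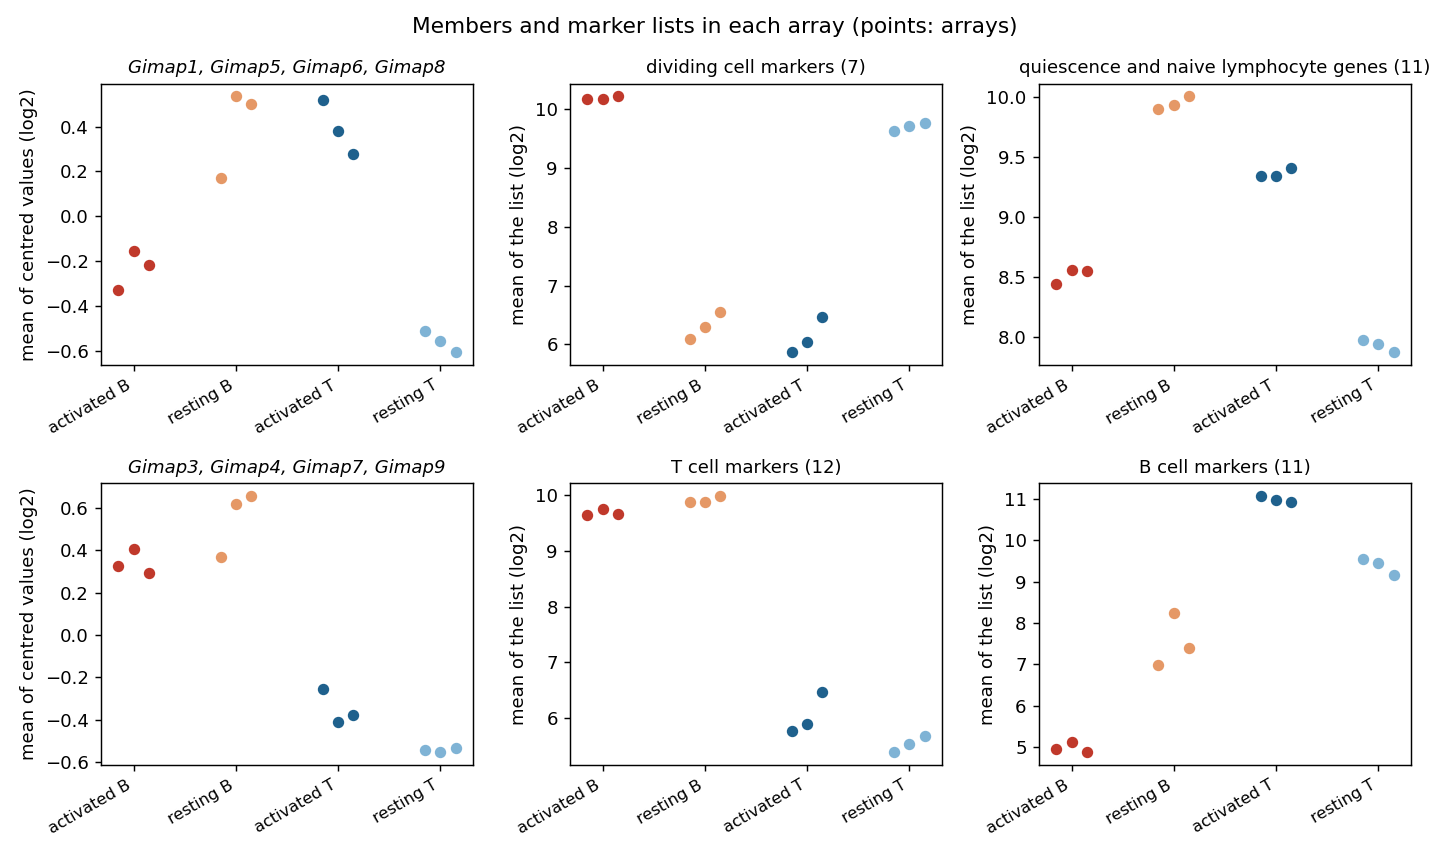
Mean of the centred log2 values of Gimap1, Gimap5, Gimap6 and Gimap8 and of Gimap3, Gimap4, Gimap7 and Gimap9 (left panels, y axis) beside the mean log2 level of 4 marker lists (other panels, y axis, genes measured in brackets), with 1 point per array in each labelled group (x axis). The first 4 genes lie between 0.17 and 0.53 in the B-labelled resting arrays and between 0.28 and 0.52 in the T-labelled activated arrays, and below 0 in the others, where the 7 markers of dividing cells lie between 9.63 and 10.21 log2.

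The correlation between members was of 2 kinds. Over the 12 arrays the 28 pairs had a median Pearson r of 0.65, from -0.30 between Gimap1 and Gimap4 to 0.99 between Gimap6 and Gimap8, and 5 pairs were below 0. Over the deviations from the group means the median was 0.70, from 0.35 to 0.94, and no pair was below 0. The points of these correlations share arrays and their normalization, and are given as a description. Of the 8 members, 7 had an r of at least 0.7 between their deviations and the mean deviation of the family. Each member is part of that mean, which raises its r. Of 12162 other genes above the background, which are not part of it, 7.42% reached 0.7, with a median of 0.145. The shares are therefore not on the same footing.

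**Figure D4:**
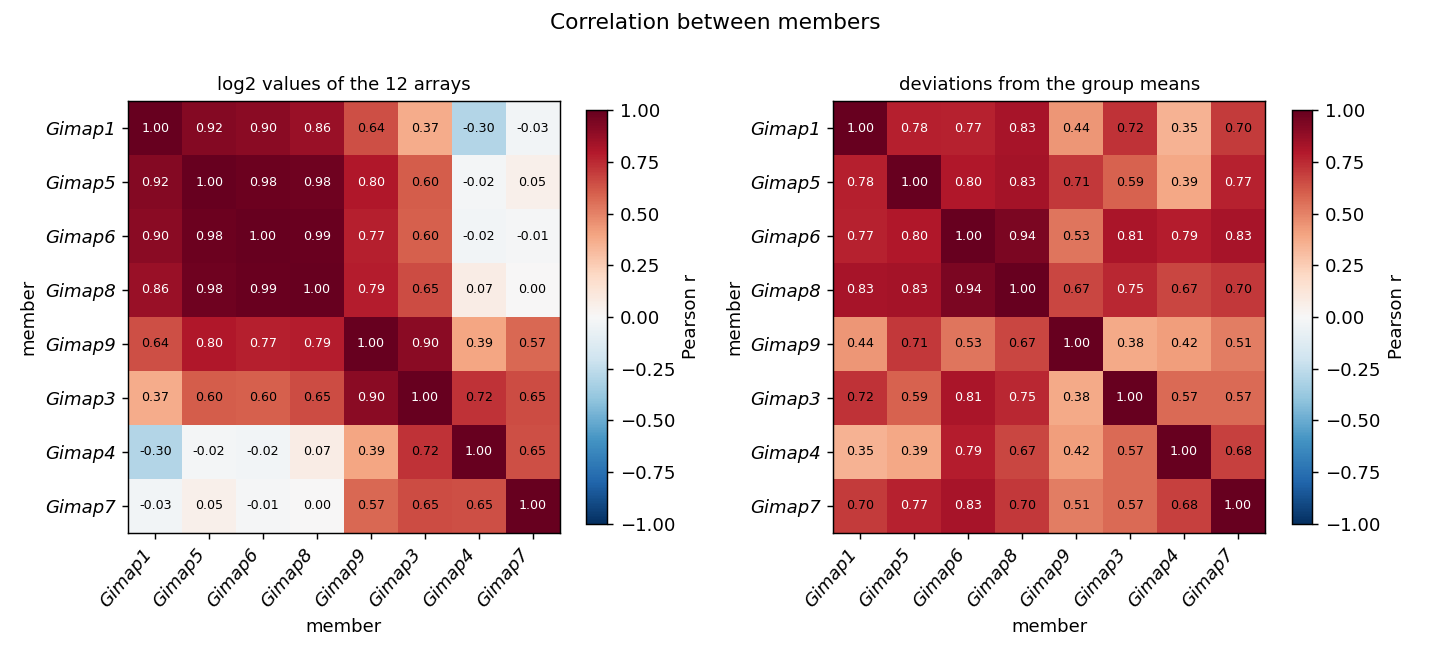
Pearson correlation (colour and number) between the 8 GIMAP genes (both axes) over the log2 values of the 12 arrays (left) and over the deviations of the arrays from their group means (right). On the left Gimap1, Gimap5, Gimap6 and Gimap8 form a block of 0.86 to 0.99 and Gimap4 and Gimap7 lie near 0 with them or below, and on the right all pairs are above 0.

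The shared deviations were largest in the B-labelled resting arrays, where replicate 1 had the lowest value of its group for 8 of 8 members, with a mean deviation of -0.21 log2. In the T-labelled activated arrays, replicate 4 had the highest value for 7 of 8 members (mean deviation 0.11 log2) and replicate 6 the lowest for 6 of 8 (-0.07 log2). In replicates 1, 2 and 3 of resting B the T cell markers had a mean of 9.88, 9.88 and 9.98 log2, the B cell markers 6.98, 8.25 and 7.40, the natural killer cell markers 7.09, 7.88 and 7.86, and the macrophage and monocyte markers 7.11, 7.70 and 6.99. In replicates 4, 5 and 6 of activated T the T cell markers had a mean of 5.78, 5.89 and 6.48 log2, the B cell markers 11.07, 10.98 and 10.92, the natural killer cell markers 5.45, 5.85 and 6.77, and the macrophage and monocyte markers 7.24, 6.63 and 7.01. Replicate 1 of resting B also had the lowest weight of the 12 arrays when arrays were weighted by their fit over all genes (0.562). Replicate 6 of resting T had a similar weight (0.572), with a mean deviation of the members of -0.02 log2. The part of these markers and weights in the deviations was not tested. Without replicate 1 of resting B, 7 members were lower in the B-labelled activated arrays than in the B-labelled resting arrays and 6 had a negative interaction.

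Endothelial cells also make GIMAP proteins. Of 8 endothelial markers, 2 were above the background in the B-labelled activated arrays and 3 in the B-labelled resting arrays. In the T-labelled arrays 3 were above it when activated and 2 when resting. Cdh5, Emcn, Kdr, Tek and Tie1 were below it in all 4 groups, and Vwf in the B-labelled activated and T-labelled resting arrays. Pecam1 and Egfl7 were above it in all 4. Pecam1 was at 8.21 log2 in the B-labelled activated and 9.13 in the B-labelled resting arrays. In the T-labelled arrays it was at 9.79 log2 when activated and 6.94 when resting. Egfl7 had 6.25, 5.64, 5.65 and 5.94 log2 in the same order of groups. Natural killer cells make GIMAP proteins too. The 6 markers of these cells had means of 5.22 to 5.67 log2 in the B-labelled activated arrays, 7.09 to 7.88 in the B-labelled resting arrays, 5.45 to 6.77 in the T-labelled activated arrays and 5.03 to 5.90 in the T-labelled resting arrays, with 6 of 6 above the background in the B-labelled resting arrays. The 10 macrophage and monocyte markers had means of 4.72 to 4.84 log2 in the B-labelled activated arrays, 6.99 to 7.70 in the B-labelled resting arrays, 6.63 to 7.24 in the T-labelled activated arrays and 5.65 to 5.88 in the T-labelled resting arrays. By the methods, cells with CD5, CD43, CD11b or Gr-1, among others, had been depleted from resting B cells with magnetic beads. Cd5 itself was at 9.75 log2 in the B-labelled resting arrays and 5.72 in the T-labelled resting arrays. How far the depletion took out macrophages and monocytes was not tested. The 5 platelet and megakaryocyte markers had means of 5.08 to 5.10 log2 in the B-labelled activated arrays, 6.31 to 6.43 in the B-labelled resting arrays, 5.94 to 6.02 in the T-labelled activated arrays and 5.08 to 5.32 in the T-labelled resting arrays. Of these Ppbp, a platelet chemokine gene, was at 4.66 log2 in the B-labelled activated arrays and 8.49 in the B-labelled resting arrays, and at 7.43 in the T-labelled activated arrays and 4.76 in the T-labelled resting arrays. Lower in the B-labelled activated than resting arrays were 5 of 5 platelet, 10 of 10 macrophage and 5 of 6 natural killer cell markers. Higher in the T-labelled activated than resting arrays were 2 of 5, 7 of 10 and 4 of 6 of them. The shares over all genes were 16.7% lower in the B-labelled and 15.9% higher in the T-labelled cells. Gzma, a natural killer cell marker, was called the other way in both, with 1.86 and -1.80 log2. The part of such cells in the levels of the members was not tested.

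Of the 8 nearest measured genes, 4 on each side of the cluster, 2 were higher and 2 lower in the B-labelled activated arrays than in the B-labelled resting arrays (19.7% and 16.7% of all genes), and none was higher and 3 were lower in the T-labelled activated arrays than in the T-labelled resting arrays (15.9% and 17.8% of all genes). Gm5111, 1 of the 2 higher, was below the background in all 4 groups (4.73 log2 in the B-labelled activated arrays and 4.28 in the B-labelled resting arrays). No neighbour was higher in the T-labelled cells at an unadjusted p under 0.05 from limma either. Tmem176b and Tmem176a encode membrane proteins of myeloid and dendritic cells. Tmem176b, next to Gimap3, was at 5.95 ± 0.21 log2 in the B-labelled activated arrays and 7.07 ± 0.18 in the B-labelled resting arrays, and at 6.16 ± 0.23 in the T-labelled activated arrays and 10.61 ± 0.18 in the T-labelled resting arrays (SD, n = 3 each). Tmem176a was at 5.72 log2 in the B-labelled activated arrays and 6.41 in the B-labelled resting arrays, and at 5.82 in the T-labelled activated arrays and 9.40 in the T-labelled resting arrays. Both were thus highest where 6 of the 8 members had their lowest group mean, with differences of -4.45 and -3.58 log2 between the T-labelled activated and resting arrays (adjusted p = 1.04e-12 and 2.59e-11 from limma). On the other side Repin1, a zinc finger gene, was 1.09 log2 higher in the B-labelled cells and 0.78 lower in the T-labelled cells.

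**Figure D5:**
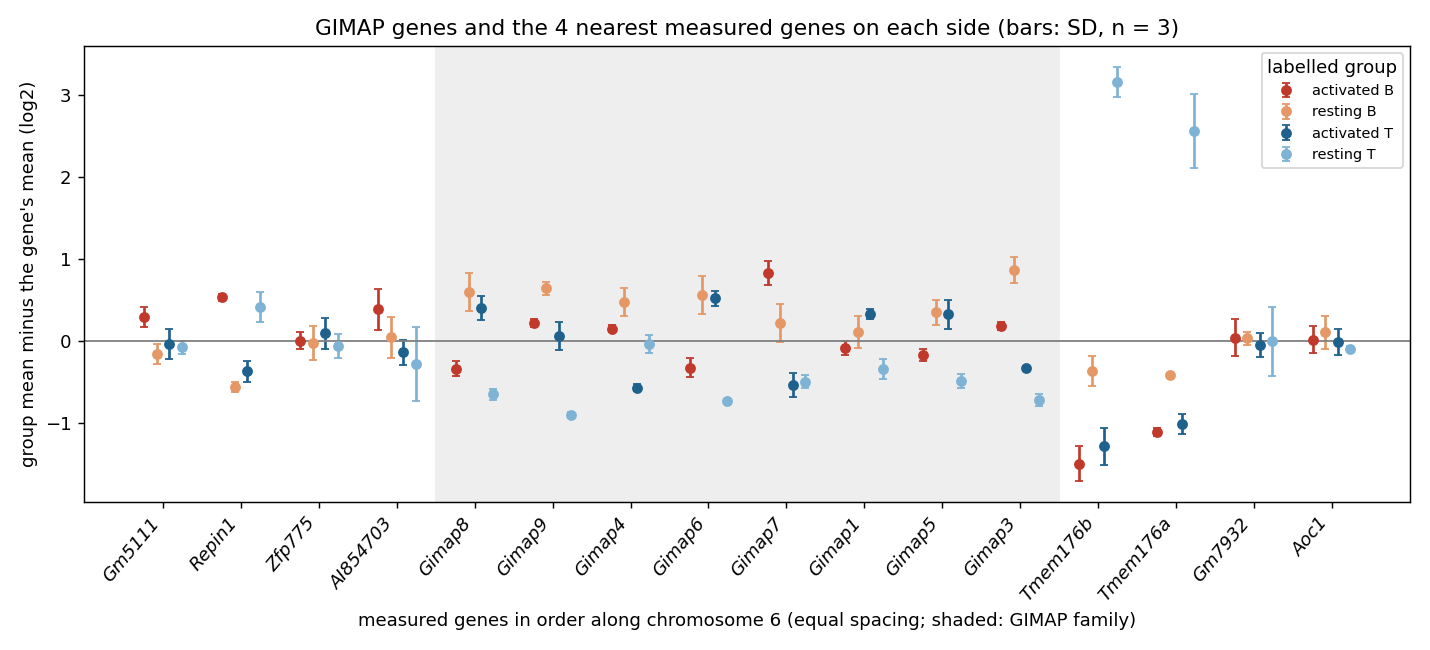
Group means minus the mean of each gene (log2, y axis; bars are SD, n = 3) for the 8 GIMAP genes (shaded) and the 4 nearest measured genes on each side, in their order along chromosome 6 with equal spacing (x axis). Tmem176b and Tmem176a lie far above 0 in the T-labelled resting arrays (means of 10.61 and 9.40 log2), where all GIMAP genes are below 0.

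Genes of quiescent and naive lymphocytes moved in the same directions as most of the members. Of 11 measured, none was higher and 11 were lower in the B-labelled activated arrays than in the B-labelled resting arrays (median -1.16 log2), and 11 were higher and none was lower in the T-labelled activated arrays than in the T-labelled resting arrays (median 1.35 log2). Klf2, a transcription factor that keeps lymphocytes at rest, had -2.75 log2 in the B-labelled cells (adjusted p = 2.41e-11 from limma) and 1.54 in the T-labelled cells (adjusted p = 3.13e-08 from limma). The Klf2 target S1pr1, through which lymphocytes leave lymph nodes and spleen, had -2.98 log2 in the B-labelled cells and 4.45 in the T-labelled cells, and the transcription factor Foxo1 had -1.17 and 0.53. Over all genes 16.7% were lower in the B-labelled and 15.9% higher in the T-labelled activated arrays. The markers of dividing cells went the opposite way, with 7 of 7 higher in the B-labelled activated arrays and 7 of 7 lower in the T-labelled activated arrays.

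Of the ATG8 family of autophagy proteins, to which the partner of Gimap6 belongs, 1 of 5 was higher and none lower in the B-labelled cells (1 lower at an unadjusted p under 0.05 from limma), and 1 was higher and 1 lower in the T-labelled cells. Over all genes 19.7% were higher and 16.7% lower in the B-labelled cells and 15.9% higher and 17.8% lower in the T-labelled cells, so that these counts say nothing particular of the family. Gabarapl2 was at 9.37 ± 0.05 log2 in the B-labelled activated arrays and 9.62 ± 0.16 in the B-labelled resting arrays, a difference that missed the threshold (-0.25, adjusted p = 0.0531 from limma). It was at 9.47 ± 0.01 log2 in the T-labelled activated arrays and 8.81 ± 0.12 in the T-labelled resting arrays (0.66, adjusted p = 3.98e-05 from limma, SD and n = 3 each). Gabarapl1 ran the other way, with 1.5 and -0.74 log2 (adjusted p = 4.65e-07 and 0.000876 from limma), and Gabarap was called in neither (-0.12 and 0.21).

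The genes most like the mean of the centred values of the 8 members over the 12 arrays, among 12162 genes above the background, were Ddb2, which recognises damaged DNA (r = 0.99), the ubiquitin-conjugating enzyme gene Ube2b (0.98), the calpain inhibitor gene Cast (0.98), Prkacb, a catalytic subunit of protein kinase A (0.98), and Lims1 (0.97). Epsti1, the diacylglycerol kinase gene Dgka, Abhd11, the CD4 lineage factor gene Zbtb7b and AI467606 followed with 0.97 each. In all, 201 genes reached an r of at least 0.9. These values are a description over 12 arrays of 4 groups.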

How the data were processed

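The deposited files hold log2 expression values for each probe set on each array. According to the processing notes of the submitters, these were made with RMA, which subtracts background, equalises the distributions of the arrays and summarises probes into probe sets. A common shift of most genes can therefore not be seen, and fold changes of dim genes are understated. The version of RMA is not given in the sources used here. Array medians lay between 5.50 and 5.68 log2. Of 34760 probe sets, 21640 had 1 gene symbol, and for 954 genes with several the one with the highest mean was taken. Groups came from the labels.

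A linear model with 4 group means (lmFit and eBayes of limma 3.58.1, R 4.3.3) had 8 residual and 7.8 prior degrees of freedom, and p-values were adjusted over 19937 genes. Other steps used Python 3.11.15 and pandas 2.3.3. The members, gene lists and comparisons were chosen with earlier results of these data known. All members and all endothelial markers are named, and of each other list the first members or those with the largest differences. Cd5 was named because the depletion of resting B cells used it. Mcl1 and Bak1 were named after their values were seen. Promoters are RefSeq windows of GRCm38.p6, kept to the 250 bases before the start. No proteins were used here. Tests were tried on simulated data. Alternatives were 2 other scalings, 2 choices of probe set, a filter on dim genes, the arrays of the groups compared alone, array weights, a robust fit with an intensity trend, a replicate block, and each array left out. Replicate numbers are shared within a labelled cell type. Over 12170 genes the deviations of same-numbered arrays correlated with r = 0.22, 0.16 and 0.23 in the T-labelled cells, which they pair by this measure, and -0.06, 0.06 and 0.25 in the B-labelled cells, which they do not.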

Additional observations from a re-analysis of the deposited data

Results flagged for a closer look

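For 7 of the 8 members the difference between activated and resting arrays differed between the labelled cell types, by the interaction term of limma with an adjusted p under 0.05. Taken as the difference in the B-labelled cells minus that in the T-labelled cells, it was -2.14 log2 for Gimap6, -2.0 for Gimap8, -1.39 for Gimap9, -1.34 for Gimap5, -1.07 for Gimap3 and -0.86 for Gimap1. It was positive for Gimap7, with 0.65 log2. Over all genes, 20.9% were called negative and 21.9% positive. Since the lineage genes go against the labels in all 4 groups, each value and its sign hold for the labels only. The markers of dividing cells were high in the B-labelled activated and T-labelled resting arrays and low in the others. By these markers the term adds up differences between dividing and other arrays, rather than setting like activations against each other. The markers of dividing cells had an opposite sign, with 7 of 7 called positive and a median of 7.89 log2, and the quiescence genes the same sign as most members, with 11 of 11 called negative and a median of -2.40 log2. Other lists were negative as well, with 11 of 11 B cell markers (median -3.91 log2), 9 of 10 macrophage and monocyte markers (-3.56), 5 of 6 natural killer cell markers (-3.96), 5 of 5 platelet and megakaryocyte markers (-1.02) and 6 of 12 T cell markers (-0.60) called so. Their part in the values of the members was not tested.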

How the results depend on the processing

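The 56 results of the members (8 genes in 7 comparisons) were refitted under up to 21 alternatives, which gave 1136 values. Of these, 25 crossed the threshold, in 10 results, 46 results kept their side of it throughout, and no called value was reversed. Of the 25, 14 came from leaving out an array. Members with a positive interaction numbered 1, against 2 with each array centred on its median (Gimap4 added) and 0 after quantile normalization (Gimap7 at 0.38 log2, adjusted p = 0.0535). Members higher in the B-labelled activated arrays than in the T-labelled resting arrays numbered 5, and 3 to 6 with an array left out. Gimap1 in the B-labelled cells was called after quantile normalization (-0.37 log2, adjusted p = 0.00652), and Gimap9 between the activated groups with each array centred on its median (0.29 log2, adjusted p = 0.0321). The causes were not tested. With the replicate block no call of a member changed, with 1 member higher and 6 lower in the B-labelled cells and 6 higher and 1 lower in the T-labelled cells. With 3 arrays a group, and 1 signal per probe set, small differences are limited by the number of arrays.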

Other observations

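Of 10 measured interferon-inducible GTPases, another family of immune GTPases, which act against pathogens inside cells, 8 were higher and none lower in the B-labelled activated arrays than in the B-labelled resting arrays (median 0.72 log2), against 19.7% and 16.7% of all genes, and 1 was lower at an unadjusted p under 0.05 from limma. In the T-labelled activated arrays none was higher, also at an unadjusted p under 0.05, and 8 were lower than in the T-labelled resting arrays (median -1.09 log2), against 15.9% and 17.8% of all genes. The means of this list were 6.82, 6.82 and 6.72 log2 in replicates 4, 5 and 6 of the T-labelled activated arrays, against 7.23, 7.84 and 8.46 in replicates 4, 5 and 6 of the T-labelled resting arrays, which thus lay far apart. In replicate 4 of resting T, Gbp3 (7.40 log2) and Gbp5 (6.44) lay below all T-labelled activated arrays, and neither gene was called there. Irgm1 was at 9.18 ± 0.17 log2 in the B-labelled activated arrays and 8.07 ± 0.09 in the B-labelled resting arrays, and at 8.11 ± 0.12 in the T-labelled activated arrays and 9.31 ± 0.49 in the T-labelled resting arrays (SD, n = 3 each). Its differences were 1.11 log2 in the B-labelled and -1.20 in the T-labelled cells (adjusted p = 6.65e-05 and 3.51e-05 from limma).

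Of 11 measured genes of the BCL2 family, 4 were higher and 1 lower in the B-labelled cells, and 2 were higher and 4 lower in the T-labelled cells. The shares over all genes were 19.7% and 16.7% in the B-labelled cells and 15.9% and 17.8% in the T-labelled cells. Bcl2, which protects lymphocytes from death, was higher in the activated than in the resting arrays of both labels, by 0.75 and 0.65 log2 (adjusted p = 1.87e-05 and 9.35e-05 from limma). Its interaction was 0.10 log2 (adjusted p = 0.637 from limma). Bcl2l1, which encodes BCL-XL, had differences of 1.0 and -2.16 log2 (adjusted p = 4.49e-05 and 7.25e-09 from limma). Mcl1, another protector, had -0.55 and 0.71 log2, and Bak1, which opens the mitochondrial membrane in dying cells, 1.25 and -0.95 log2 (highest adjusted p of 6.07e-05 from limma).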
